A study of Mus musculus with 16 samples.

Results

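Splenic CD4 T cells of mice with B cell lymphoma were compared between day 14 and day 7 after transplant, the later and the earlier time in one lymphoma model. The comparison used 11 of the study's 16 RNA sequencing libraries, chosen by the time point in their labels: 7 from day 7 and 4 from day 14. All 11 mice were C57BL/6 and had been given Eµ-Myc lymphoma cells, and no other allele or agent is named in the labels. The remaining 5 libraries came from C57BL/6 mice without tumours. They stayed out of the fit, and their values are given for some genes only. The CD4 T cells were left over after magnetic beads had taken out the other spleen cells, so that any cell the beads missed was sequenced too. The design text gives its numbers in mice, and 1 library was read as 1 mouse. Age, sex and the number of lymphoma cells given are not stated in the sources used here.

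In Eµ-Myc lymphoma an immunoglobulin heavy chain enhancer drives the Myc oncogene in the B lineage, and the malignant B cells grow in spleen and lymph nodes. CD4 T cells in these organs can stay naive, circulating under the control of Foxo1, Ccr7 and S1pr1, or can be activated, divide and become helper or regulatory cells. Regulatory T cells depend on Foxp3 and on interleukin 2, whose receptor signals through Jak3 and Stat5 and switches on the feedback inhibitors Cish, Socs2 and Socs3. Follicular helper T cells assist B cells and carry the receptors Cxcr5 and PD-1.

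Levels are in the usual unit of CPM, a gene's reads relative to all gene reads of its library, after TMM scaling, which allows for differences in library composition. A change is the log2 ratio of day 14 to day 7 with its standard error (SE) from edgeR's quasi-likelihood fit. A gene is called where the Benjamini-Hochberg adjusted p of that fit is below 0.05, and adjusted p-values are from this fit unless another is named. In bulk RNA, fewer cells of a type and less RNA per cell cannot be told apart.

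The 11 libraries held 14493764 to 24916411 gene counts, with 21534837 ± 3741219 at day 7 (SD, n = 7) and 15909844 ± 1205838 at day 14 (n = 4, exact permutation p = 0.0333, adjusted p = 0.118 over 6 library measures). Reads outside gene models made up 54.6% to 68.0% of a library at day 7 and 54.4% to 69.8% at day 14. The T cell genes Cd3e (1107 to 1912 CPM at day 7, 789.5, 1529, 1298 and 1009 CPM in day 14 libraries 1 to 4) and Cd4 (1231 to 1836 CPM, and 1005, 1402, 1397 and 1090.0 CPM) were abundant throughout and were not called (adjusted p = 0.276 and 0.148). The CD8 genes Cd8a and Cd8b1 summed to at most 17.96 CPM in any of the 11 libraries. Xist, made from the inactive X chromosome of females, was abundant in day 7 libraries 1 to 5 and day 14 libraries 2 and 3, and transcripts of the Y chromosome in day 7 libraries 6 and 7 and day 14 library 4. Day 14 library 1 had 162 Xist reads and 0 Y-linked reads. Reads on 1429 olfactory and vomeronasal receptor genes, which sensory neurons use, summed to 44.6 to 498 CPM at day 7 and 133 to 722 CPM at day 14 before TMM scaling (exact permutation p = 0.161, adjusted p = 0.241). Myc, the driver of the transplanted lymphoma, spanned 105 to 203 CPM at day 7 and stood at 167, 205, 143 and 269.8 CPM in day 14 libraries 1 to 4 (adjusted p = 0.451).

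Of 23479 genes, 17014 were tested and 712 were called, 4.18% of those tested. Of these, 316 were higher at day 14 (1.86%) and 396 lower (2.33%). The higher genes changed more: their median log2 change was 1.28 and 214 of them rose at least 2-fold, while the lower genes had a median of -0.54 and 33 fell at least 2-fold. The median level was 13.95 CPM for genes called higher and 109.3 CPM for genes called lower. The part of level in the size of the changes was not tested. Without regard to calls, every day 14 library lay above every day 7 library for 311 genes (1.83%) and below every one for 497 (2.92%). Among called genes, 154 of the 316 higher and 294 of the 396 lower were without overlap in this way. Direction varied with abundance. Among 3733 genes under 1 CPM 90.4% of log2 changes were positive, with a median of 0.79. Among 4909 genes of 1 to 10 CPM the median was 0.50, and among 6190 of 10 to 100 CPM it was -0.07. Among 2182 genes at 100 CPM or more 17.1% of changes were positive, the median was -0.16 and 9.58% were called lower. The median over all tested genes was 0.09. Reads on the sensory receptor genes were also higher on average at day 14. With their level as a covariate, a setting added after seeing the data, the median was -0.0056 and 761 genes were higher and 478 lower. Scaling by library totals alone raised that median by 0.158 and gave 586 genes higher and 154 lower.

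**Figure D1:**
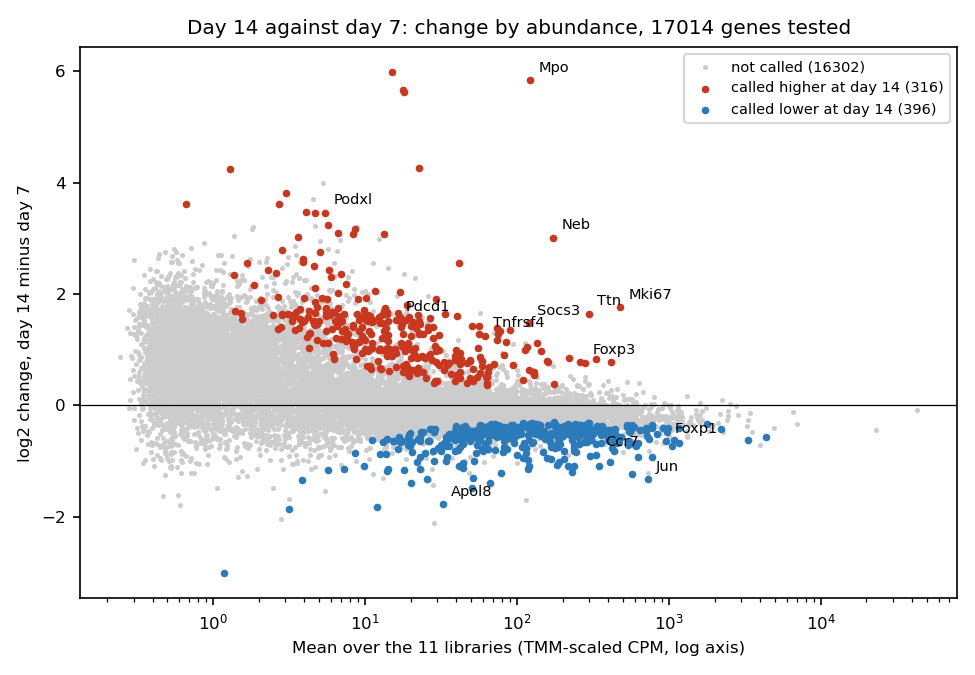
Each point is 1 of the 17014 genes tested, with its mean level over the 11 libraries (TMM-scaled CPM, log axis) and its log2 change, day 14 minus day 7. The 316 genes called higher reach large changes at low and middle levels, and the 396 called lower lie mostly above 10 CPM with smaller changes.

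Gene lists were read by how many members were called and by the median log2 change. Beside these stand the 1.86% called higher, the 2.33% called lower and the median of 0.09 over all genes. Since the median depends on level, each member's change was also taken relative to the median of all tested genes in its own abundance class (under 1, 1 to 10, 10 to 100, and 100 CPM or more), a description chosen after seeing the data. Leaving aside markers of other cell types and the list of giant muscle genes, mitosis genes stood highest, followed by the lists of regulatory and follicular helper T cells. Medians of the marker lists of other cell types ran from -0.09 for MHC class II to 1.63 for basophils and mast cells. Macrophages and monocytes had 1.45 and erythroid cells 1.17. Against their own abundance classes these lists stood at -0.47, 1.51, 0.66 and 0.67, in that order. Below the median of all genes stood lists of the immediate early response, cholesterol synthesis, the naive state, the T cell receptor and TGF-beta signalling. Relative to their own abundance classes the medians were 1.42 for mitosis, 0.71 for regulatory T cell and 0.70 for follicular helper T cell genes, and -0.57 for the immediate early response, -0.53 for cholesterol synthesis, -0.37 for naive and central memory, -0.17 for the T cell receptor and -0.13 for the TGF-beta pathway. None of the medians of these 8 lists as first given changed sign under RLE scaling or library totals. The type I interferon response list also stood below the median of all genes, at -0.39. Relative to their own abundance classes its genes had a median of -0.35, and 21 of 22 lay below.

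**Figure D2:**
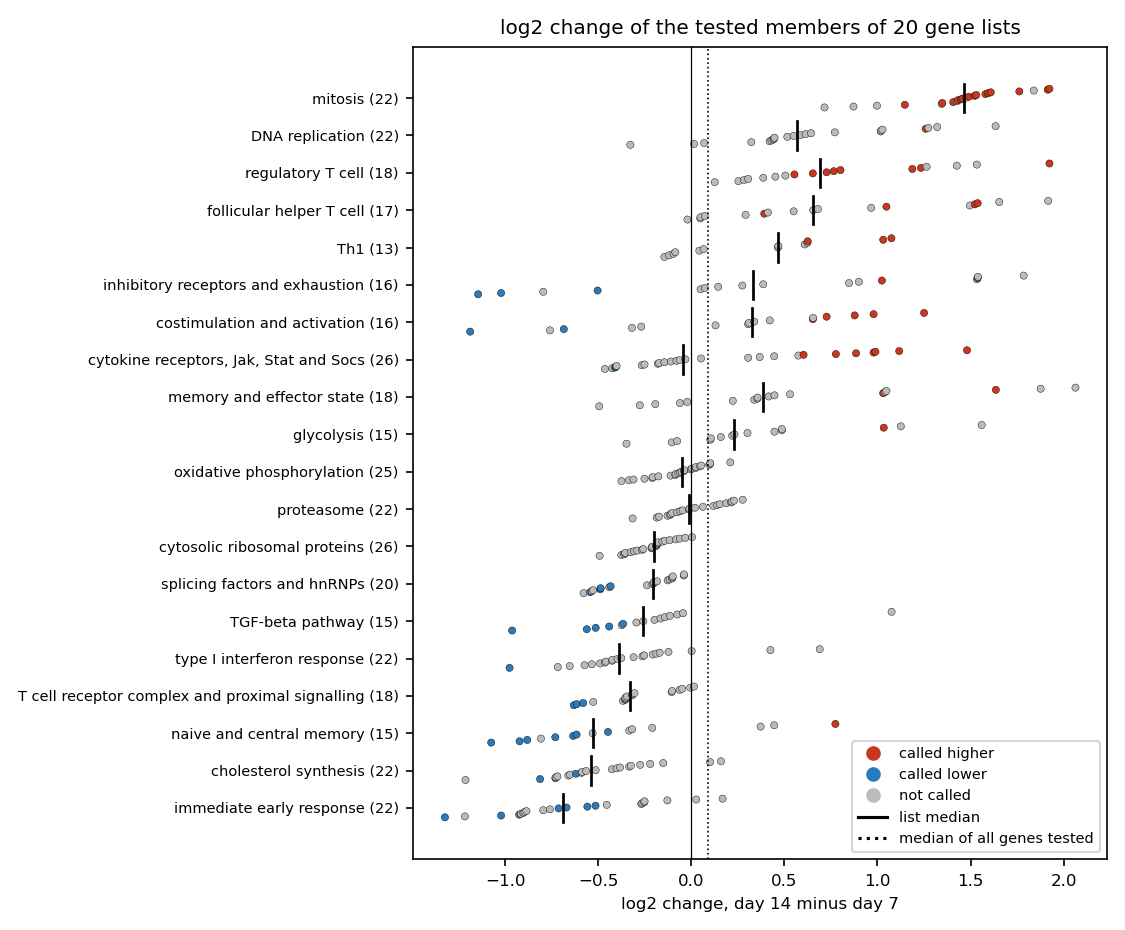
Each point is a tested member of 1 of 20 gene lists, placed by its log2 change (day 14 minus day 7). Coloured points are called, the bars are list medians and the dotted line is the median of 0.09 over all genes tested; all 22 mitosis genes lie to the right of 0 and all 20 genes of splicing factors and hnRNPs to the left, 7 of which lie above 0 under library totals.

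Genes of cell division rose. Of 22 mitosis genes, 15 were called higher and none lower, all 22 log2 changes were positive and the median was 1.47. The share called higher among all tested genes was 1.86%. Mki67, a nuclear protein of dividing cells, had 128, 199.7 and 505 CPM as lowest, median and highest values at day 7 and 276, 935, 778 and 1486 CPM in day 14 libraries 1 to 4. Libraries 2, 3 and 4 lay above all 7 libraries of day 7, and library 1 lay within the day 7 range, as it did for Cenpf. Its mean went from 256 ± 130.3 to 869 ± 498 CPM (SD, n = 7 and 4 here and for all means, log2 change 1.76 ± 0.37, adjusted p = 0.0186). Cenpf, a protein of the kinetochore, had 11.9, 20.05 and 41.4 CPM at day 7 and 31.7, 67.1, 63.03 and 122 CPM at day 14 (log2 change 1.61 ± 0.33, adjusted p = 0.0165). Cenpe, a kinetochore motor, rose from 31.2 ± 10.6 to 84.4 ± 47.2 CPM (SD, log2 change 1.43 ± 0.31, adjusted p = 0.02). Aurkb, the kinase that corrects chromosome attachment, rose from 2.79 ± 1.42 to 10.6 ± 7.47 CPM (SD, log2 change 1.91 ± 0.42, adjusted p = 0.0208), and the 4 day 14 libraries lay above all 7 of day 7. The spindle proteins Nusap1 (mean ± SD 9.45 ± 3.84 to 27.4 ± 18.4 CPM, log2 change 1.53 ± 0.35, adjusted p = 0.0235) and Kif11 (mean ± SD 16.3 ± 5.91 to 43.4 ± 27.1 CPM, log2 change 1.41 ± 0.32, adjusted p = 0.0236) and Top2a, the topoisomerase that untangles chromosomes (mean ± SD 57.8 ± 26.8 to 147 ± 86.3 CPM, log2 change 1.35 ± 0.34, adjusted p = 0.0369), rose as well.

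Promoters of mitosis genes are shown because the list moved together and because 2 short motifs recur in them: CCAAT, the letters bound by NF-Y, and TTTGAA, the core of the cell cycle homology region. The sequences are RefSeq's for GRCm38.p6, from 250 bases before to 50 after the annotated start, read 5′ to 3′ on the gene's strand. Capitals mark each motif on either strand, so ATTGG and TTCAAA are the same motifs reversed. Mki67 lies at chr7:135716330-135716629 and Top2a at chr11:99024140-99024439, both on the minus strand.
Mki67: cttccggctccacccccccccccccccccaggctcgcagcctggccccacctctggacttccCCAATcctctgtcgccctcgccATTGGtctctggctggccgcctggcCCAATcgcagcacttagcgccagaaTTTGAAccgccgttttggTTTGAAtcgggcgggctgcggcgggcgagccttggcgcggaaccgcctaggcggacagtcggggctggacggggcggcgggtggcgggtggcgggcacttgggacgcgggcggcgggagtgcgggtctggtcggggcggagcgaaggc
Top2a: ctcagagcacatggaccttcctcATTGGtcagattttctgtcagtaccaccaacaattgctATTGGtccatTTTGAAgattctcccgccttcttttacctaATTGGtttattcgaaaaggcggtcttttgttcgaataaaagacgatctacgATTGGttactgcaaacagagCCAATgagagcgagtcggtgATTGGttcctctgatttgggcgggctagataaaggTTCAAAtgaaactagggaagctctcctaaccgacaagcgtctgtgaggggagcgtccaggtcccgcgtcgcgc
Mki67 holds 3 CCAAT and 2 TTTGAA matches and Top2a 6 and 2. Of 22 mitosis genes, 19 matched a promoter by symbol. CCAAT was found in 17 of these 19 (89.5%) and in 37.9% of all 27025 promoters of the same length, and TTTGAA in 14 of 19 (73.7%) and in 18.1%. A match describes the letters and does not show binding.

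DNA replication genes had a smaller median, 0.57, with 21 of 22 log2 changes positive. Pole, the catalytic subunit of the leading strand polymerase, was the 1 member called (mean ± SD 20.4 ± 8.74 to 49.1 ± 23.4 CPM, log2 change 1.26 ± 0.30, adjusted p = 0.0322). Mcm5, a subunit of the replicative helicase, stood at 29.4, 62.8, 45.1 and 78.1 CPM in day 14 libraries 1 to 4 against 32.6 to 57.7 CPM at day 7 (adjusted p = 0.27). Outside both lists, the centriole protein Stil rose from 5.34 ± 1.85 to 17.7 ± 10.4 CPM (SD, log2 change 1.72 ± 0.32, adjusted p = 0.0118) and the replication-dependent histone Hist1h2bb from 9.89 ± 5.50 to 34.8 ± 11.7 CPM (SD, log2 change 1.81 ± 0.33, adjusted p = 0.0103), both named by a rule that required groups without overlap. Cdk6, a cyclin-dependent kinase of early cell cycle, rose from 18.9 ± 8.29 to 59.5 ± 50.03 CPM (SD, log2 change 1.65 ± 0.38, adjusted p = 0.0254).

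The rise of the mitosis list rested in part on day 14 library 4. Without it no mitosis gene was called and the median was 1.02. Without library 3, 8 were called, and leaving out any one of day 7 libraries 1 to 5 gave 3 to 8. With all 16 libraries in the fit none was called, at a median of 1.47, and with the 7 Xist-bearing libraries alone, a setting chosen after seeing the data, 19 were. Mki67, Cenpf, Cenpe and Stil lost their calls without day 14 library 4 (adjusted p = 0.109, 0.104, 0.125 and 0.0704). Aurkb lost its call without day 7 library 5 or day 14 library 4 (highest adjusted p = 0.175). Nusap1 lost its call without day 7 library 1 or 5 or day 14 library 4 (highest adjusted p = 0.173). Kif11 lost its call without day 7 library 1, 4 or 5 or day 14 library 4 (highest adjusted p = 0.171). Cdk6 lost its call without day 7 library 1, 2, 4 or 5 or day 14 library 4 (highest adjusted p = 0.204). Top2a lost its call without day 7 library 1, 2, 3, 4 or 5 or day 14 library 3 or 4 (highest adjusted p = 0.239). Pole lost its call without day 7 library 1, 2, 3, 4 or 5 or day 14 library 4 (highest adjusted p = 0.201). Markers of other dividing cells moved with the mitosis genes. Of 18 genes in the erythroid list 17 were found and summed, and 13 were tested. Their summed level was 16.3 to 32.2 CPM in day 7 libraries 1 to 5 and 205.5 and 362 CPM in libraries 6 and 7, and it was 50.2, 521, 151 and 265 CPM in day 14 libraries 1 to 4. The summed mitosis genes stood at 294 to 518 CPM, at 690.1 and 976 CPM, and at 583, 1659, 1296 and 2727 CPM in the same libraries. The globin genes Hbb-bs, Hbb-bt, Hba-a1 and Hba-a2 were at 0 in all 11, while Car1 of the same list reached 238 CPM in day 14 library 2. How reads on such close paralogs were counted is not known, so the 0 was not read as absence of erythroid cells. The part of erythroid cells in the mitosis genes was not tested. Without day 14 library 4 the log2 change was 1.25 for Aurkb, 0.94 for Nusap1 and 0.83 for Cdk6. Among control libraries Mki67 spanned 195 to 3334 CPM and Aurkb 1.89 to 26.7 CPM.

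**Figure D3:**
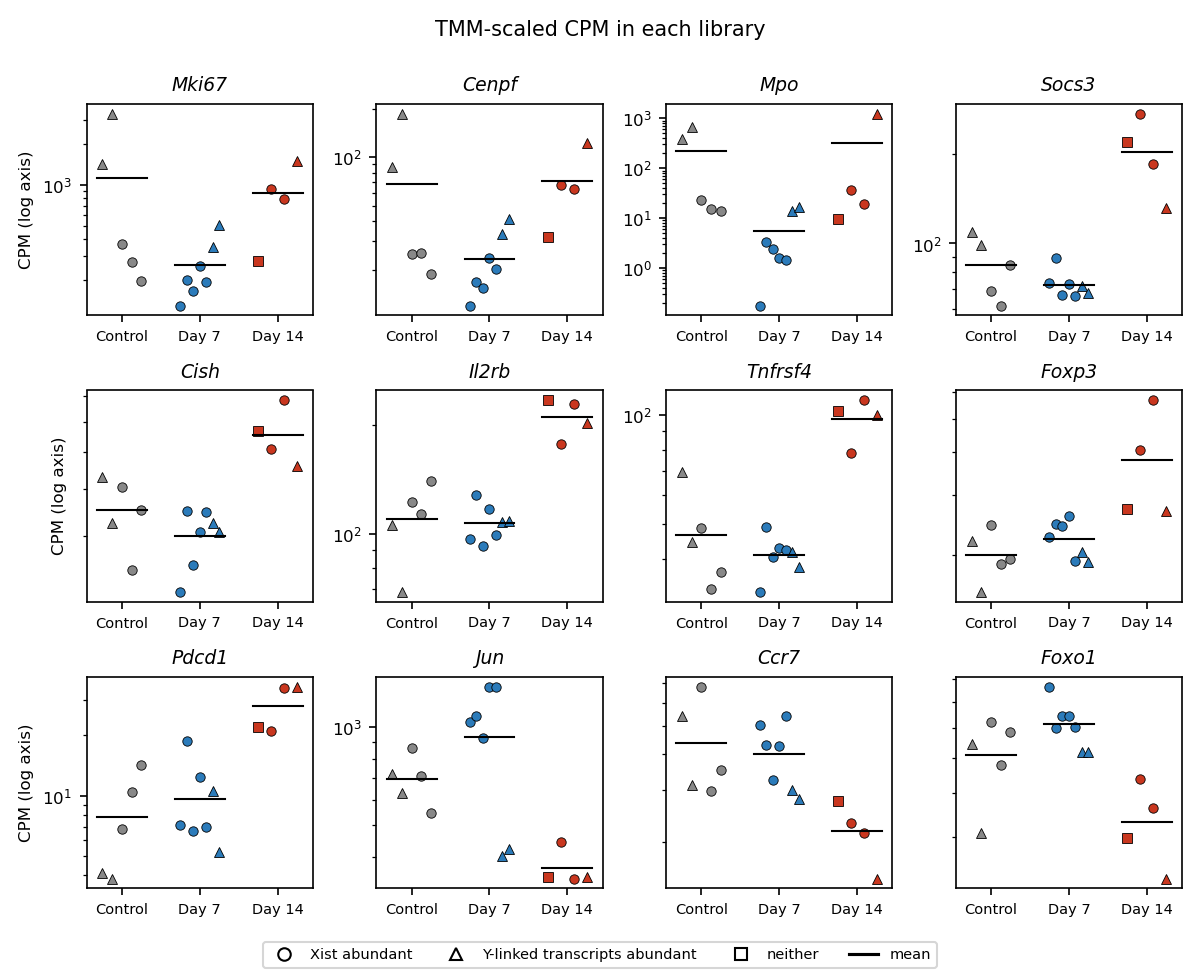
TMM-scaled CPM (log axis) of 12 genes in every control, day 7 and day 14 library, with group means as bars. Symbols show whether Xist, Y-linked transcripts or neither are abundant. Socs3, Cish, Il2rb, Tnfrsf4, Foxp3, Pdcd1, Ccr7 and Foxo1 separate the day 14 libraries from all day 7 libraries, and Mki67, Cenpf, Mpo and Jun overlap.

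Among genes of interleukin signalling the receptor chains Il2rb and Il10ra, the kinase Jak3 and the inhibitors Socs2, Socs3 and Cish rose, and Jak1 and Il6ra fell. Of 26 genes in the list of cytokine receptors, Jak, Stat and Socs, 7 were called higher and 2 lower. The shares over all tested genes were 1.86% and 2.33%. At 100 CPM or more, where 21 of the 26 lay, they were 1.05% and 9.58%. In the list 12 log2 changes were positive, and the median was -0.05, or 0.10 under library totals. Among receptors, Il2rb, the beta chain shared by the interleukin 2 and 15 receptors, had 92.3, 108 and 128 CPM as lowest, median and highest values at day 7. It stood at 235, 177, 229 and 203 CPM in day 14 libraries 1 to 4, all above day 7 (log2 change 0.98 ± 0.10, adjusted p = 0.000281). Il10ra, the interleukin 10 receptor chain, rose from 29.2 ± 5.67 to 57.96 ± 14.7 CPM (SD, log2 change 0.99 ± 0.17, adjusted p = 0.00776), and Ifngr1, a chain of the interferon gamma receptor named here after its values were seen, from 107 ± 17.7 to 162 ± 33.5 CPM (SD, log2 change 0.60 ± 0.14, adjusted p = 0.027). Il6ra, the interleukin 6 receptor (also named after its values were seen), fell from 374 ± 33.6 to 282 ± 14.2 CPM (SD, log2 change -0.41 ± 0.09, adjusted p = 0.0208).

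Among the kinases, Jak3, which signals below the common gamma chain, had 167, 206 and 257 CPM at day 7 and 312, 433, 385 and 296 CPM at day 14 without overlap (log2 change 0.78 ± 0.13, adjusted p = 0.00811). Jak1, its partner at these receptors and named after its values were seen, moved the other way, from 1291 ± 85.1 to 975 ± 124 CPM (SD, log2 change -0.41 ± 0.10, adjusted p = 0.0334). The inhibitor Socs3, which blocks receptors of the interleukin 6 family, had 66.3, 71.98 and 88.98 CPM at day 7 and 220.2, 274, 185 and 131 CPM in day 14 libraries 1 to 4. The lowest day 14 library lay well above the highest day 7 library (log2 change 1.48 ± 0.15, adjusted p = 0.000143), and controls spanned 61.6 to 109 CPM. Cish, induced by Stat5, had 21.3, 30.7 and 35.01 CPM at day 7 and 56.7, 50.9, 68.5 and 45.8 CPM at day 14, again without overlap (log2 change 0.89 ± 0.14, adjusted p = 0.0052). Socs2, another target of Stat5, rose from 4.01 ± 0.91 to 8.71 ± 1.04 CPM (SD, log2 change 1.12 ± 0.23, adjusted p = 0.0163). Bcl3, an atypical inhibitor of NF-kappaB, rose from 49.6 ± 12.4 to 121 ± 63.6 CPM (SD, log2 change 1.28 ± 0.25, adjusted p = 0.0138), with 77.4, 206, 132 and 67.03 CPM in libraries 1 to 4. Library 4 had the lowest Socs3, Cish, Jak3 and Bcl3 of the day 14 libraries.

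Il2rb, Il10ra, Jak3, Socs3, Cish and Bcl3 were called in all 11 fits that leave out 1 library. Socs2 lost its call without day 14 library 4 (adjusted p = 0.0591). Ifngr1 lost its call without day 7 library 4 or day 14 library 2, 3 or 4 (highest adjusted p = 0.105). Il6ra lost its call without day 14 library 3 or 4 (highest adjusted p = 0.0788). Jak1 lost its call without day 7 library 1 or 4 or day 14 library 3 or 4 (highest adjusted p = 0.109). With library totals Il6ra and Jak1 lost their calls (adjusted p = 0.0772 and 0.0846).

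The promoters of the 2 Socs family genes with the smallest adjusted p are shown with TTCNNNGAA, the letters of a Stat site with any 3 bases between, in capitals (GRCm38.p6). Cish lies at chr9:107296409-107296708 on the plus strand and Socs3 at chr11:117969317-117969616 on the minus strand.
Cish: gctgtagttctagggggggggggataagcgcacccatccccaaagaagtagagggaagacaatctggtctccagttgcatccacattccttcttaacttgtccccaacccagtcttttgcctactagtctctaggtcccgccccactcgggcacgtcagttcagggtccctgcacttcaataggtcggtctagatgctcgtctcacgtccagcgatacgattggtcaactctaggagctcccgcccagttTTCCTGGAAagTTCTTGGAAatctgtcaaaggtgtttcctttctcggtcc
Socs3: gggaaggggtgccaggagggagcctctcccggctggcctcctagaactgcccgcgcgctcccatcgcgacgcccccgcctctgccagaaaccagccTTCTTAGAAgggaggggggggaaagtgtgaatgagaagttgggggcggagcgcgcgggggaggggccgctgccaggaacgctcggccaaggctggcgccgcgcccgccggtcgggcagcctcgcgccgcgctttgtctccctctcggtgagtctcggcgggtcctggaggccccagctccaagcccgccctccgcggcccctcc
Cish holds 2 matches near its start, and Socs3 holds 1. The motif was found in 4 of the 21 list members that matched a promoter and in 8.47% of all 27025 promoters. It reads the same on both strands.

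In the costimulation and activation list of 16 genes, 5 were called higher, Tnfrsf4, Tnfrsf9, Tnfrsf18, Tnfrsf1b and Il2rb, and 2 lower, Cd28 and Cd40lg. The shares over all tested genes were 1.86% and 2.33%. Tnfrsf4, which encodes the costimulatory receptor OX40, had 32.3, 41.7 and 48.9 CPM as lowest, median and highest values at day 7 and 102, 78.3, 109.7 and 99.8 CPM in day 14 libraries 1 to 4 (log2 change 1.25 ± 0.11, adjusted p = 9.11e-05). Every day 14 library was above the highest control too (32.9 to 69.4 CPM). Tnfrsf18, the receptor GITR, had 38.1, 41.7 and 49.2 CPM at day 7 and 56.7, 62.6, 80.9 and 67.3 CPM at day 14 (log2 change 0.65 ± 0.11, adjusted p = 0.00707). It lies close to Tnfrsf4 on chromosome 4, at 156026164 to 156028895, with Tnfrsf4 at 156013843 to 156016612 (GRCm38, plus strand). Tnfrsf1b, the second TNF receptor, had 36.03, 45.1 and 50.7 CPM and 78.1, 69.9, 86.7 and 88.2 CPM (log2 change 0.88 ± 0.10, adjusted p = 0.000652), again without overlap. Tnfrsf9, or 4-1BB, rose from 24.7 ± 4.47 to 40.9 ± 8.13 CPM (SD, log2 change 0.73 ± 0.15, adjusted p = 0.0187), and day 14 library 1 overlapped with day 7.

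Cd40lg, the ligand by which helper cells activate B cells and dendritic cells, fell. It had 179, 283 and 404 CPM at day 7 and 75.96, 175, 126 and 129 CPM at day 14, so that the groups were separated by the narrow gap between day 14 library 2 and the lowest day 7 library (log2 change -1.19 ± 0.23, adjusted p = 0.0133). Cd28, the main costimulatory receptor, named after its values were seen, fell from 386 ± 101 to 240.3 ± 25.6 CPM (SD, log2 change -0.68 ± 0.18, adjusted p = 0.0475). Tnfrsf9 lost its call without day 14 library 3 (adjusted p = 0.0746). Cd28 lost its call without day 7 library 1, 2, 4 or 5 or day 14 library 2, 3 or 4 (highest adjusted p = 0.116). With library totals Cd28 lost its call (adjusted p = 0.111). Icos, the inducible costimulator, stood at 85.6, 98.8, 119 and 118 CPM in day 14 libraries 1 to 4 against 41.97 to 96.6 CPM at day 7 (adjusted p = 0.0501). Icam1, the adhesion ligand of LFA-1, rose from 20.5 ± 2.55 to 43.1 ± 10.8 CPM (SD, log2 change 1.07 ± 0.15, adjusted p = 0.00285), and the growth factor Csf1 from 7.80 ± 1.73 to 16.9 ± 4.10 CPM (SD, log2 change 1.12 ± 0.20, adjusted p = 0.0105). Tnfrsf4, Tnfrsf18, Tnfrsf1b, Cd40lg, Icam1 and Csf1 were called in all 11 fits that leave out 1 library.

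Genes of regulatory T cells rose. Each of the 18 genes of the regulatory T cell list had a positive log2 change, with a median of 0.69. Of the 18, 8 were called: Foxp3, Ikzf2, Tnfrsf18, Tnfrsf9, Itgae, Capg, Klrg1 and Ebi3. The share called higher among all tested genes was 1.86%. Foxp3, the transcription factor that defines the lineage, had 191, 226 and 259.9 CPM as lowest, median and highest values at day 7. It stood at 273, 406, 569.6 and 269 CPM in day 14 libraries 1 to 4, all above day 7, with library 3 highest (log2 change 0.77 ± 0.17, adjusted p = 0.0231). Ikzf2, which encodes Helios and was named after its values were seen, rose from 124 ± 35.5 to 217 ± 54.8 CPM (SD, log2 change 0.80 ± 0.19, adjusted p = 0.0291). Itgae, the integrin chain CD103, rose from 4.77 ± 1.17 to 10.9 ± 3.02 CPM (SD, log2 change 1.19 ± 0.24, adjusted p = 0.0163), the inhibitory lectin receptor Klrg1 from 1.96 ± 1.10 to 7.43 ± 2.52 CPM (SD, log2 change 1.92 ± 0.41, adjusted p = 0.0197), and Ebi3, the shared chain of interleukins 27 and 35, from 2.80 ± 0.656 to 6.59 ± 1.17 CPM (SD, log2 change 1.23 ± 0.25, adjusted p = 0.0168). These 3 were low but did not overlap between the groups, and neither did 154 of all 316 genes called higher. Capg, an actin capping protein named after its values were seen, rose from 34.3 ± 4.71 to 50.4 ± 9.01 CPM (SD, log2 change 0.55 ± 0.13, adjusted p = 0.0282).

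Ctla4, an inhibitory receptor that regulatory cells carry at high level, was not called, with 138, 102, 161 and 177 CPM in day 14 libraries 1 to 4 against 35.4 to 229 CPM at day 7 (adjusted p = 0.567). Without day 14 library 4 the regulatory T cell list had 3 members called, and without library 3 it had 2, while the median was 0.66 and 0.52. Over all 11 fits that leave out 1 library the number ran from 2 to 10, with 5 without day 7 library 5. Foxp3 lost its call without day 7 library 5 or day 14 library 3 (highest adjusted p = 0.0881). Ikzf2 lost its call without day 7 library 5 or day 14 library 3 or 4 (highest adjusted p = 0.109). Itgae and Klrg1 lost their calls without day 14 library 3 or 4 (highest adjusted p = 0.0623 and 0.0667). Ebi3 lost its call without day 14 library 4 (adjusted p = 0.0869). Capg lost its call without day 7 library 1, 2, 3, 4 or 5 or day 14 library 3 or 4 (highest adjusted p = 0.177).

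Of 17 genes in the follicular helper T cell list, 4 were called higher and 16 log2 changes were positive, with a median of 0.65. The share called higher among all tested genes was 1.86%. Pdcd1, which encodes PD-1, had 5.23, 7.18 and 18.7 CPM as lowest, median and highest values at day 7 and 22.04, 21.2, 34.4 and 35.1 CPM in day 14 libraries 1 to 4 (log2 change 1.54 ± 0.29, adjusted p = 0.0118). The groups did not overlap, and the controls spanned 3.85 to 14.2 CPM. Maf, a transcription factor of helper cells that make interleukin 21, had 113, 142, 185 and 250.1 CPM at day 14 against 58.1 to 129.5 CPM at day 7, with library 1 inside the day 7 range (log2 change 1.05 ± 0.21, adjusted p = 0.0165). Slamf6, an adhesion receptor of T and B cell contacts, rose from 159 ± 13.3 to 208 ± 28.2 CPM (SD, log2 change 0.39 ± 0.10, adjusted p = 0.0361), and the transcription factor Tox2 from 8.36 ± 5.21 to 24.1 ± 13.2 CPM (SD, log2 change 1.52 ± 0.40, adjusted p = 0.044). Cxcr5, the receptor that guides cells into follicles, did not pass, at 41.4, 47.7, 80.9 and 71.1 CPM against 19.5 to 53.6 CPM at day 7 (adjusted p = 0.0569). Without day 14 library 4 the follicular helper T cell list had 1 member called and a median of 0.55. Over all 11 such fits it had 1 to 8, with 8 without day 7 library 2 and 2 without day 7 libraries 5 or 6 or day 14 library 3. Maf lost its call without day 14 library 4 (adjusted p = 0.069). Slamf6 lost its call without day 7 library 4, 5 or 6 or day 14 library 3 or 4 (highest adjusted p = 0.18). Tox2 lost its call without day 7 library 1, 5, 6 or 7 or day 14 library 3 or 4 (highest adjusted p = 0.196). Pdcd1 was called in all 11 such fits.

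Other inhibitory receptors were less uniform. In the list of inhibitory receptors and exhaustion, with 16 genes and a median of 0.33, 2 were called higher, Pdcd1 and Prdm1, and 3 lower. Prdm1, which encodes the effector regulator Blimp-1, had 20.9, 11.8, 25.7 and 24.5 CPM in day 14 libraries 1 to 4 against 7.75 to 12.96 CPM at day 7 (log2 change 1.02 ± 0.20, adjusted p = 0.0124). Lag3 stood at 16.6, 13.3, 36.6 and 50.4 CPM against 4.79 to 21.9 CPM and Tigit at 22.7, 15.6, 34.4 and 45.1 CPM against 3.73 to 24.7 CPM, both with an adjusted p of 0.0515. Havcr2, or TIM-3, stood at no more than 6.02 CPM in any of the 11 libraries (adjusted p = 0.0571). The gene 4632428N05Rik, an older symbol of Vsir, whose product VISTA restrains resting T cells, fell from 419 ± 29.8 to 295 ± 50.03 CPM (SD, log2 change -0.50 ± 0.11, adjusted p = 0.0185) without overlap. The nuclear receptors Nr4a1 (mean ± SD 232 ± 86.2 to 114 ± 12.1 CPM, log2 change -1.02 ± 0.25, adjusted p = 0.0318) and Nr4a3 (mean ± SD 147 ± 54.6 to 66.5 ± 15.5 CPM, log2 change -1.15 ± 0.26, adjusted p = 0.0253), switched on by the T cell receptor, fell. Prdm1 and 4632428N05Rik lost their calls without day 14 library 4 (adjusted p = 0.0622 and 0.0768). Nr4a1 and Nr4a3 lost their calls without day 14 library 3 or 4 (highest adjusted p = 0.0827 and 0.0763). With library totals Nr4a1 lost its call (adjusted p = 0.05).

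Most genes of the effector lists were not called. Over all tested genes, 1.86% were called higher and 2.33% lower. Calls for 3 genes, all higher, were found among 13 Th1 genes: the receptor Cxcr3, which draws cells to inflamed tissue (mean ± SD 15.4 ± 4.20 to 31.6 ± 9.62 CPM, log2 change 1.03 ± 0.21, adjusted p = 0.0165), the interleukin 12 receptor chain Il12rb1 (mean ± SD 11.9 ± 2.15 to 18.4 ± 2.17 CPM, log2 change 0.63 ± 0.16, adjusted p = 0.0416) and the interleukin 18 receptor chain Il18rap (mean ± SD 5.95 ± 2.07 to 12.6 ± 4.79 CPM, log2 change 1.08 ± 0.28, adjusted p = 0.0455). Tbx21, the transcription factor of Th1 cells, was not called (10.9, 29.3, 24.8 and 21.9 CPM against 9.92 to 24.9 CPM at day 7, adjusted p = 0.358). Il1rl1, the interleukin 33 receptor, was the 1 call among 9 tested Th2 genes (mean ± SD 2.95 ± 1.55 to 9.97 ± 4.02 CPM, log2 change 1.75 ± 0.39, adjusted p = 0.0228), and Gata3, which directs Th2 cells, stood at 149, 169, 167 and 139 CPM against 159.6 to 217 CPM (adjusted p = 0.073). None of 7 tested Th17 genes was called, and all 7 had positive changes. Cxcr3 lost its call without day 14 library 3 or 4 (highest adjusted p = 0.0692). Il12rb1 lost its call without day 7 library 1, 2, 3, 4, 5 or 6 or day 14 library 2, 3 or 4 (highest adjusted p = 0.178). Il18rap lost its call without day 7 library 1, 3, 4, 5 or 6 or day 14 library 3 or 4 (highest adjusted p = 0.222). Il1rl1 lost its call without day 7 library 5 or day 14 library 3 or 4 (highest adjusted p = 0.125).

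Among 14 tested cytotoxic effector genes, Cst7 and Klrg1 rose and Klrd1, Ctsw and Fasl fell. Cst7, a cathepsin inhibitor of killer cells, rose from 19.02 ± 5.24 to 44.1 ± 14.96 CPM (SD, log2 change 1.21 ± 0.22, adjusted p = 0.0102). Klrd1, the lectin receptor CD94, had 18.2, 22.2 and 30.5 CPM as lowest, median and highest values at day 7 and 6.43, 15.3, 9.37 and 9.47 CPM at day 14 (log2 change -1.17 ± 0.21, adjusted p = 0.00958). The protease Ctsw had 26.8, 34.5 and 35.4 CPM and 13.2, 24.3, 17.2 and 20.2 CPM (log2 change -0.82 ± 0.15, adjusted p = 0.0103), and the death ligand Fasl fell from 19.6 ± 3.64 to 12.4 ± 1.81 CPM (SD, log2 change -0.66 ± 0.17, adjusted p = 0.0418). Groups were separate for Cst7, Klrd1 and Ctsw. S100a6, a calcium-binding protein that memory cells raise, rose from 7.95 ± 1.81 to 24.7 ± 12.4 CPM (SD, log2 change 1.64 ± 0.25, adjusted p = 0.00423) and was 1 of 2 calls among 18 genes of the memory and effector state, with Cxcr3. Fasl lost its call without day 7 library 1, 2, 3, 4 or 5 or day 14 library 1, 2, 3 or 4 (highest adjusted p = 0.108). With library totals Fasl lost its call (adjusted p = 0.104).

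Genes of the naive state fell. Of 15 genes in the naive and central memory list, 7 were called lower and 1 higher, with a median of -0.53. All 15 lay at 100 CPM or more, where the median of all genes was -0.16 and 9.58% were called lower. Foxo1, the transcription factor that maintains homing and quiescence, had 618, 704 and 867 CPM as lowest, median and highest values at day 7 and 397, 538, 464 and 322 CPM in day 14 libraries 1 to 4 (log2 change -0.73 ± 0.14, adjusted p = 0.0108). Foxp1, which also enforces quiescence, had 935, 1159 and 1194 CPM and 738, 769, 704 and 642 CPM (log2 change -0.63 ± 0.10, adjusted p = 0.00496). Neither gene overlapped between the groups. Ccr7, the lymph node homing receptor and a Foxo1 target, had 279, 426 and 542 CPM at day 7 and 275, 232, 214 and 149 CPM at day 14, where library 1 came within a few CPM of the lowest day 7 library (log2 change -0.88 ± 0.20, adjusted p = 0.0224). S1pr1, the receptor for exit from lymphoid organs, fell from 459 ± 49.5 to 337 ± 52.8 CPM (SD, log2 change -0.45 ± 0.11, adjusted p = 0.0369). Lef1, a partner of Tcf7 in naive cells, fell from 1235 ± 110.4 to 806 ± 199 CPM (SD, log2 change -0.62 ± 0.14, adjusted p = 0.0253), the actin crosslinker Actn1 from 753 ± 111 to 397 ± 126 CPM (SD, log2 change -0.92 ± 0.18, adjusted p = 0.0124) and Dapl1 from 227 ± 31.2 to 108 ± 53.7 CPM (SD, log2 change -1.07 ± 0.22, adjusted p = 0.0168).

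Tcf7 and Il7r did not pass the test. Tcf7, a transcription factor of naive cells, stood at 1729, 2366, 1877 and 1274 CPM in day 14 libraries 1 to 4 against 1605 to 2958 CPM at day 7 (adjusted p = 0.346). Il7r, the interleukin 7 receptor, stood at 682, 328, 403 and 492 CPM against 320.4 to 371 CPM (adjusted p = 0.0952). Bcl2, which protects T cells from death and is also in this list, rose from 332 ± 45.7 to 569 ± 165 CPM (SD, log2 change 0.77 ± 0.16, adjusted p = 0.0165), with 749.8, 359, 537 and 629 CPM in libraries 1 to 4 and library 2 inside the day 7 range. Foxo1, Foxp1 and Actn1 were called in all 11 fits that leave out 1 library. Ccr7 and Dapl1 lost their calls without day 14 library 3 or 4 (highest adjusted p = 0.0636 and 0.0598). Bcl2 lost its call without day 14 library 4 (adjusted p = 0.0783). Lef1 lost its call without day 7 library 1, 4 or 5 or day 14 library 3 or 4 (highest adjusted p = 0.0725). S1pr1 lost its call without day 7 library 1, 2, 4, 5 or 6 or day 14 library 3 or 4 (highest adjusted p = 0.122). With library totals Lef1 and S1pr1 lost their calls (adjusted p = 0.0696 and 0.146). The naive and central memory list had 3 to 9 members called lower over those fits.

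Of 18 genes in the list of the T cell receptor complex and proximal signalling, 1 had a positive log2 change (6 under library totals), 4 were called lower and the median was -0.33. All 18 lay at 100 CPM or more, where the median of all genes was -0.16 and 9.58% were called lower. Cd5, which damps receptor signals, had 259.6, 358, 294 and 287 CPM in day 14 libraries 1 to 4 against 353 to 528 CPM at day 7, with day 14 library 2 just inside the day 7 range (log2 change -0.61 ± 0.12, adjusted p = 0.0117). The receptor chain Cd3d fell from 212 ± 32.9 to 142 ± 37.2 CPM (SD, log2 change -0.58 ± 0.15, adjusted p = 0.0451), and Prkcq, the kinase that links the receptor to NF-kappaB, from 575 ± 24.7 to 449.9 ± 59.7 CPM (SD, log2 change -0.36 ± 0.09, adjusted p = 0.0474). Cd3d lost its call without day 7 library 1, 2, 4, 5 or 6 or day 14 library 1, 3 or 4 (highest adjusted p = 0.154). Prkcq lost its call without day 7 library 1, 2, 4, 5, 6 or 7 or day 14 library 3 or 4 (highest adjusted p = 0.162). With library totals Cd3d and Prkcq lost their calls (adjusted p = 0.0528 and 0.182).

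Signalling by TGF-beta showed 5 calls, all lower, among 15 genes (median -0.26), where genes of 100 CPM or more, 9 of the 15, had a median of -0.16 and 9.58% called lower. Among receptors, Tgfbr3, the co-receptor betaglycan, had 121, 133, 119 and 100.1 CPM in day 14 libraries 1 to 4 against 149.8 to 199 CPM at day 7 (log2 change -0.56 ± 0.10, adjusted p = 0.0105), and Tgfbr2 fell from 432 ± 41.7 to 318 ± 59.7 CPM (SD, log2 change -0.44 ± 0.12, adjusted p = 0.049). Of the transducers, Smad2 fell from 84.8 ± 5.77 to 65.8 ± 4.66 CPM (SD, log2 change -0.37 ± 0.09, adjusted p = 0.0275). The feedback inhibitor Smad7, itself a TGF-beta target, had 154, 202 and 252 CPM as lowest, median and highest values at day 7 and 128, 118, 87.04 and 84.8 CPM at day 14 (log2 change -0.96 ± 0.15, adjusted p = 0.00496). The repressor Skil fell from 152 ± 19.1 to 106 ± 9.23 CPM (SD, log2 change -0.51 ± 0.11, adjusted p = 0.0168). None of the 5 overlapped between the groups, and neither did 294 of all 396 genes called lower. Tgfbr2 lost its call without day 7 library 1, 2, 4, 5 or 6 or day 14 library 3 or 4 (highest adjusted p = 0.154). Smad2 lost its call without day 7 library 1 or day 14 library 3 or 4 (highest adjusted p = 0.0825). With library totals Tgfbr2 and Smad2 lost their calls (adjusted p = 0.117 and 0.223).

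In the integrins and adhesion list, 5 of 15 genes were called lower and 2, Icam1 and Itgae, higher. Of all tested genes 2.33% were called lower and 1.86% higher, and 9.58% lower at 100 CPM or more, where 9 of the 15 lay. Relative to their own abundance classes the median of the list was -0.03, with 7 above and 8 below. Itgb3, the beta chain of the vitronectin receptor, fell from 197 ± 24.4 to 118 ± 26.3 CPM (SD, log2 change -0.74 ± 0.14, adjusted p = 0.0112), Itgb7, the partner of Itgae and of the gut homing integrin, from 469 ± 62.6 to 324 ± 60.3 CPM (SD, log2 change -0.53 ± 0.13, adjusted p = 0.0312), and the laminin receptor chain Itga6 from 233 ± 25.3 to 165 ± 28.4 CPM (SD, log2 change -0.50 ± 0.12, adjusted p = 0.0261). Cd96, a receptor for nectins, fell from 223 ± 36.02 to 138 ± 24.9 CPM (SD, log2 change -0.69 ± 0.14, adjusted p = 0.0165). Icam2, a further LFA-1 ligand, named after its values were seen, fell from 61.8 ± 6.60 to 45.1 ± 7.88 CPM (SD, log2 change -0.46 ± 0.12, adjusted p = 0.0461). Gpr183, the oxysterol receptor that positions helper cells at the follicle edge, had 167, 158, 173 and 148 CPM in day 14 libraries 1 to 4 against 175 to 377 CPM at day 7 (log2 change -0.81 ± 0.19, adjusted p = 0.0268). Pecam1, an adhesion molecule of endothelium that naive T cells also make, fell from 256 ± 26.2 to 181 ± 10.1 CPM (SD, log2 change -0.50 ± 0.09, adjusted p = 0.0112). Itgb7 lost its call without day 7 library 1, 4, 5 or 6 or day 14 library 1, 3 or 4 (highest adjusted p = 0.14). Itga6 lost its call without day 7 library 1 or 5 or day 14 library 3 or 4 (highest adjusted p = 0.114). Cd96 lost its call without day 14 library 4 (adjusted p = 0.0501). Icam2 lost its call without day 7 library 1, 4, 5, 6 or 7 or day 14 library 1, 3 or 4 (highest adjusted p = 0.148). Gpr183 lost its call without day 14 library 3 or 4 (highest adjusted p = 0.072). With library totals Itgb7, Itga6, Icam2 and Gpr183 lost their calls (adjusted p = 0.0547, 0.054, 0.0905 and 0.0594).

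Immediate early genes, the first to respond to receptor signals or to stress, included several that fell. Of 22 members of the immediate early response list, 7 fell, Jun, Junb, Jund, Nr4a1, Ier2, Ier5 and Btg2, and the median was -0.69. The share called lower was 2.33% over all tested genes and 9.58% at 100 CPM or more, where 14 of the 22 lay. Jun, a subunit of AP-1, had 404, 1036 and 1327 CPM as lowest, median and highest values at day 7 and 349, 446, 344 and 349 CPM in day 14 libraries 1 to 4 (log2 change -1.32 ± 0.30, adjusted p = 0.0228). Day 7 libraries 6 and 7 (404 and 425 CPM) lay below day 14 library 2, and day 7 libraries 1 to 5 lay at 926 CPM or more. The summed immediate early response list showed the same split: it was 7267 to 10522 CPM in day 7 libraries 1 to 5, 4636 and 4771 CPM in libraries 6 and 7, and 4328 to 5066 CPM at day 14. Junb fell from 929.6 ± 267 to 489.9 ± 107 CPM (SD, log2 change -0.92 ± 0.21, adjusted p = 0.0268), Ier5 from 129.5 ± 17.01 to 81.4 ± 15.04 CPM (SD, log2 change -0.67 ± 0.13, adjusted p = 0.0124) and the antiproliferative gene Btg2 from 252 ± 43.2 to 176 ± 26.03 CPM (SD, log2 change -0.51 ± 0.14, adjusted p = 0.0446). Ier2 fell from 83.5 ± 13.5 to 56.7 ± 9.84 CPM (SD, log2 change -0.56 ± 0.14, adjusted p = 0.0387), and Jund, named after its values were seen, from 629 ± 183 to 384 ± 28.8 CPM (SD, log2 change -0.71 ± 0.19, adjusted p = 0.0486). Fos stood at 126, 167, 138 and 129.8 CPM against 145 to 462 CPM (adjusted p = 0.103) and the early activation antigen Cd69 at 85.6, 76.99, 83.7 and 83.7 CPM against 56.99 to 235 CPM (adjusted p = 0.172). No member of the immediate early response list was called without day 14 library 4 and 1 was without library 3, with medians of -0.69 and -0.67, and 4 were without day 7 libraries 1, 4 or 5. With the Xist-bearing libraries alone 10 were called. Ier5 lost its call without day 14 library 4 (adjusted p = 0.0531). Jun and Junb lost their calls without day 14 library 3 or 4 (highest adjusted p = 0.0711 and 0.09). Ier2 lost its call without day 7 library 1, 4, 5 or 6 or day 14 library 3 or 4 (highest adjusted p = 0.119). Btg2 lost its call without day 7 library 1, 4, 5 or 6 or day 14 library 1, 3 or 4 (highest adjusted p = 0.111). Jund lost its call without day 7 library 1, 4 or 5 or day 14 library 1, 3 or 4 (highest adjusted p = 0.119). With library totals Ier2, Btg2 and Jund lost their calls (adjusted p = 0.106, 0.0779 and 0.0784).

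Stress genes went in different directions. Ppp1r15a, or GADD34, which reverses the stress block on translation, had 384, 775 and 973 CPM at day 7 and 379.9, 354, 296 and 196 CPM at day 14 (log2 change -1.23 ± 0.26, adjusted p = 0.0173), a gap of a few CPM between the groups. It was named for the size of its fall among called genes without overlap, so that this separation was fixed by the choice. The endoplasmic reticulum chaperones Hspa5 (mean ± SD 503 ± 60.4 to 328 ± 71.2 CPM, log2 change -0.62 ± 0.13, adjusted p = 0.0187) and Dnajb9 (mean ± SD 269.8 ± 91.96 to 128 ± 28.6 CPM, log2 change -1.08 ± 0.26, adjusted p = 0.0297) fell, while Atf6, a sensor of unfolded protein, rose from 26.1 ± 5.48 to 44.9 ± 13.8 CPM (SD, log2 change 0.78 ± 0.19, adjusted p = 0.0325). Psat1 (mean ± SD 21.8 ± 3.58 to 38.4 ± 14.3 CPM, log2 change 0.82 ± 0.19, adjusted p = 0.0258) and Shmt2 (mean ± SD 54.7 ± 10.7 to 83.00 ± 12.4 CPM, log2 change 0.60 ± 0.15, adjusted p = 0.0364), enzymes of serine and one-carbon metabolism, were the 2 calls among 16 genes of the integrated stress response and amino acid supply. Ppp1r15a lost its call without day 14 library 3 (adjusted p = 0.0526). Hspa5 lost its call without day 14 library 3 or 4 (highest adjusted p = 0.0666). Psat1 lost its call without day 7 library 5 or day 14 library 4 (highest adjusted p = 0.176). Atf6 lost its call without day 7 library 4 or 5 or day 14 library 3 or 4 (highest adjusted p = 0.189). Dnajb9 lost its call without day 7 library 1 or 5 or day 14 library 3 or 4 (highest adjusted p = 0.092). Shmt2 lost its call without day 7 library 1, 3, 4 or 5 or day 14 library 2, 3 or 4 (highest adjusted p = 0.201).

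Of 12 genes that glucocorticoids induce, 2 rose. Fkbp5, a chaperone partner of the glucocorticoid receptor, had 38.3, 51.7 and 57.4 CPM as lowest, median and highest values at day 7 and 189.8, 60.1, 77.8 and 171 CPM in day 14 libraries 1 to 4 (log2 change 1.33 ± 0.24, adjusted p = 0.0103). Libraries 1 and 4 were far above libraries 2 and 3, and library 2 came close to the highest day 7 library. Ddit4, an inhibitor of mTORC1, had 20.8, 38.2 and 81.3 CPM at day 7 and 149, 138, 112 and 91.4 CPM at day 14 (log2 change 1.39 ± 0.28, adjusted p = 0.0163). The groups were separate for both, and both were called in all 11 fits that leave out 1 library. With the Xist-bearing libraries alone, 2 of them from day 14, the log2 change of Fkbp5 was 0.55 (adjusted p = 0.0511).

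Type I interferon response genes were mostly lower, and more of them were called where day 14 library 2 was left out. In the type I interferon response list 19 of 22 log2 changes were below 0, the median was -0.39, and Ifi27l2a was the 1 called (mean ± SD 145 ± 47.97 to 73.6 ± 32.5 CPM, log2 change -0.98 ± 0.26, adjusted p = 0.0474). It stood at 44.7, 120.2, 67.4 and 62.2 CPM in day 14 libraries 1 to 4, and library 2 lay within the day 7 range. Without library 2, 14 of the 22 were called lower and the median was -0.74. In the list of interferon gamma response and MHC class I, Irf1 (mean ± SD 299 ± 32.1 to 185 ± 50.7 CPM, log2 change -0.69 ± 0.14, adjusted p = 0.0165), Irf9 (mean ± SD 108 ± 7.94 to 73.8 ± 21.98 CPM, log2 change -0.55 ± 0.14, adjusted p = 0.0402) and the immunoproteasome subunit Psmb9 (mean ± SD 48.6 ± 1.93 to 37.04 ± 2.99 CPM, log2 change -0.39 ± 0.09, adjusted p = 0.0216) fell and the guanylate-binding protein Gbp3 rose (mean ± SD 23.4 ± 2.40 to 40.1 ± 12.3 CPM, log2 change 0.78 ± 0.17, adjusted p = 0.0195). Without day 14 library 3 or 4 none of the interferon gamma response and MHC class I list was called, and without library 2, 7 were called lower. The median of these 20 genes was -0.13, and 0.01 under library totals. Irf1 and Gbp3 lost their calls without day 14 library 3 or 4 (highest adjusted p = 0.0531 and 0.112). Psmb9 lost its call without day 7 library 1 or day 14 library 3 or 4 (highest adjusted p = 0.116). Irf9 and Ifi27l2a lost their calls without day 7 library 1, 4, 5 or 6 or day 14 library 1, 3 or 4 (highest adjusted p = 0.146 and 0.146). With library totals Psmb9 and Irf9 lost their calls (adjusted p = 0.117 and 0.0547).

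Of the sterol genes 3 fell. In the cholesterol synthesis list 20 of 22 log2 changes were below 0 and the median was -0.54. In this list 3 were called lower, beside 2.33% of all tested genes. Fdft1, which makes squalene, had 18.6, 24.04 and 27.2 CPM as lowest, median and highest values at day 7 and 13.4, 12.5, 14.6 and 15.7 CPM at day 14, without overlap (log2 change -0.73 ± 0.14, adjusted p = 0.012). Insig1, which holds the sterol sensor in the endoplasmic reticulum, fell from 46.3 ± 10.5 to 26.3 ± 2.80 CPM (SD, log2 change -0.81 ± 0.16, adjusted p = 0.0163), and Srebf2, the transcription factor of the pathway, from 263 ± 47.6 to 172 ± 31.3 CPM (SD, log2 change -0.62 ± 0.15, adjusted p = 0.0322). Without day 14 library 2, 9 members of the cholesterol synthesis list were called lower. Without day 7 library 2 there were 6, and without day 14 library 3 there was 1. Insig1 lost its call without day 14 library 3 (adjusted p = 0.0513). Srebf2 lost its call without day 7 library 1, 4, 5 or 6 or day 14 library 3 or 4 (highest adjusted p = 0.108). With library totals Srebf2 lost its call (adjusted p = 0.0542).

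Other metabolic lists had few calls or none. None of 25 oxidative phosphorylation, 26 ribosomal protein, 22 proteasome, 17 iron handling and 14 fatty acid synthesis genes was called, at medians of -0.05, -0.20, -0.01, -0.05 and 0.01, of which those of oxidative phosphorylation, the proteasome and iron handling were positive under library totals. Among these genes, Fth1, the ferritin heavy chain, stood at 258, 528, 321 and 341 CPM against 418 to 615 CPM at day 7 (adjusted p = 0.172), and the transferrin receptor Tfrc at 45.8, 67.1, 43.97 and 51.4 CPM against 34.5 to 62.6 CPM (0.314). In glycolysis, Tpi1 was the 1 call of 15 (mean ± SD 21.3 ± 6.88 to 43.8 ± 15.9 CPM, log2 change 1.03 ± 0.24, adjusted p = 0.0275). For splicing factors and hnRNPs all 20 log2 changes were below 0 (7 were above 0 under library totals), at a median of -0.21. This was near the -0.16 of all genes at 100 CPM or more, of which 9.58% were called lower and among which 19 of the 20 lay. Relative to their own abundance classes 13 lay below and 7 above, and of the 20, Srsf6 (mean ± SD 444 ± 55.5 to 329 ± 27.4 CPM, log2 change -0.43 ± 0.11, adjusted p = 0.0338), Srsf7 (mean ± SD 225 ± 21.7 to 161 ± 24.6 CPM, log2 change -0.49 ± 0.11, adjusted p = 0.0214), Hnrnpc (mean ± SD 283 ± 36.2 to 202 ± 41.6 CPM, log2 change -0.49 ± 0.13, adjusted p = 0.0474) and Rbm39 (mean ± SD 811 ± 167 to 557 ± 55.3 CPM, log2 change -0.54 ± 0.14, adjusted p = 0.0444) fell. Tpi1 lost its call without day 7 library 2, 3, 4 or 5 or day 14 library 4 (highest adjusted p = 0.18). Srsf6 and Srsf7 lost their calls without day 14 library 3 or 4 (highest adjusted p = 0.0894 and 0.0631). Hnrnpc lost its call without day 7 library 1, 2, 4, 5, 6 or 7 or day 14 library 1, 3 or 4 (highest adjusted p = 0.144). Rbm39 lost its call without day 7 library 1 or 5 or day 14 library 3 or 4 (highest adjusted p = 0.107). With library totals Srsf6, Hnrnpc and Rbm39 lost their calls (adjusted p = 0.101, 0.0951 and 0.122).

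In the adenosine pathway list, with 9 genes tested and a median of 0.04, 1 was called higher, 1 lower and 7 were not called. Over all tested genes 4.18% were called. Nt5e, the ectonucleotidase CD73 that makes adenosine, rose from 46.7 ± 12.97 to 81.4 ± 16.8 CPM (SD, log2 change 0.80 ± 0.18, adjusted p = 0.0222). Pde4b, a phosphodiesterase that breaks down cyclic AMP, had 172, 258 and 301 CPM as lowest, median and highest values at day 7 and 126, 132, 134 and 116 CPM at day 14, without overlap (log2 change -0.96 ± 0.15, adjusted p = 0.0055). Rapgef4 and Cnga1 were not named as members of a list. They were named for the size of their fall among called genes without overlap, so that their separation was fixed by the choice. Rapgef4, an exchange factor activated by cyclic AMP, had 90.3, 97.5 and 111 CPM at day 7 and 53.3, 47.8, 39.1 and 31.4 CPM at day 14 (log2 change -1.21 ± 0.13, adjusted p = 0.000281). Cnga1, a cyclic nucleotide-gated channel, fell from 16.3 ± 3.21 to 4.61 ± 3.00 CPM (SD, log2 change -1.82 ± 0.34, adjusted p = 0.0108). Pde4b, Rapgef4 and Cnga1 were called in all 11 fits that leave out 1 library. Nt5e lost its call without day 14 library 3 or 4 (highest adjusted p = 0.0869).

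Further genes were named for the size of their change among called genes whose groups do not overlap, so that their separation was fixed by the choice. Apol8, an apolipoprotein L family member, had 30.6, 44.4 and 68.3 CPM at day 7 and 20.97, 10.8, 13.3 and 6.46 CPM in day 14 libraries 1 to 4 (log2 change -1.77 ± 0.29, adjusted p = 0.00564). Its controls spanned 6.04 to 40.4 CPM. Lypd6b, a surface protein of the Ly6 family, fell from 25.96 ± 3.97 to 9.86 ± 2.21 CPM (SD, log2 change -1.40 ± 0.17, adjusted p = 0.000899), Arhgap29, a GTPase activating protein, from 32.8 ± 3.33 to 13.2 ± 3.46 CPM (SD, log2 change -1.32 ± 0.16, adjusted p = 0.000899), and the cell cycle regulator Rgcc from 85.5 ± 29.9 to 32.4 ± 6.45 CPM (SD, log2 change -1.40 ± 0.25, adjusted p = 0.00879). Sesn1, a p53 target that restrains mTORC1, fell from 163 ± 7.11 to 112 ± 14.4 CPM (SD, log2 change -0.54 ± 0.09, adjusted p = 0.00701) and was, as a list member, the 1 call among 18 CDK inhibitors and p53 targets. On the higher side, Podxl, a sialomucin of the CD34 family, had 0.175, 0.76 and 2.51 CPM at day 7 and 2.56, 32.01, 10.1 and 7.19 CPM at day 14 (log2 change 3.46 ± 0.62, adjusted p = 0.0101), led by library 2, without which the log2 change was 2.49. Cpd, a carboxypeptidase of the Golgi, rose from 7.29 ± 1.85 to 23.7 ± 6.10 CPM (SD, log2 change 1.70 ± 0.21, adjusted p = 0.000899), and the protease inhibitor Serpina3g from 7.73 ± 2.84 to 24.8 ± 9.45 CPM (SD, log2 change 1.68 ± 0.27, adjusted p = 0.0055). All 8 of these genes were called in all 11 fits that leave out 1 library.

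The smallest adjusted p of all genes belonged to Neb, which encodes nebulin of the muscle thin filament and lies on chromosome 2 at 52136647 to 52378474 (GRCm38). Neb had 36.4, 44.5 and 62.98 CPM as lowest, median and highest values at day 7 and 489, 164, 433 and 475 CPM in day 14 libraries 1 to 4 (log2 change 3.01 ± 0.23, adjusted p = 1.64e-05). Controls had 38.7 to 51.4 CPM. Ttn, which encodes titin and lies on chromosome 2 at 76703980 to 76982547, had 93.96, 143 and 331 CPM and 382, 445, 671 and 608 CPM (log2 change 1.65 ± 0.28, adjusted p = 0.00765). Dst, a giant linker of the cytoskeleton, rose from 83.2 ± 33.9 to 165 ± 35.9 CPM (SD, log2 change 0.99 ± 0.23, adjusted p = 0.0274), and Macf1, another such linker and abundant in T cells, fell from 4958 ± 382 to 3332 ± 609.7 CPM (SD, log2 change -0.57 ± 0.12, adjusted p = 0.0175). Macf1 lost its call without day 14 library 3 (adjusted p = 0.058). Dst lost its call without day 14 library 3 or 4 (highest adjusted p = 0.0962). Per kilobase of exon, Neb stood at 1.37 to 2.37 CPM at day 7 and at 18.4, 6.16, 16.3 and 17.9 CPM in day 14 libraries 1 to 4. The olfactory and vomeronasal receptor genes stood at 0.00851 to 0.0934 CPM per kilobase at day 7 and at 0.1198, 0.0263, 0.0688 and 0.0416 at day 14. Day 7 library 3 had more receptor reads than day 14 libraries 2, 3 and 4 and had 2.19 CPM of Neb per kilobase. Within day 14, library 2 was lowest and library 1 highest for both Neb and the receptor genes. The part of this background in the change of Neb was not tested. Median exon length was 5540 bases in genes called higher, 5557 in genes called lower and 4221 in all tested genes.

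**Figure D4:**
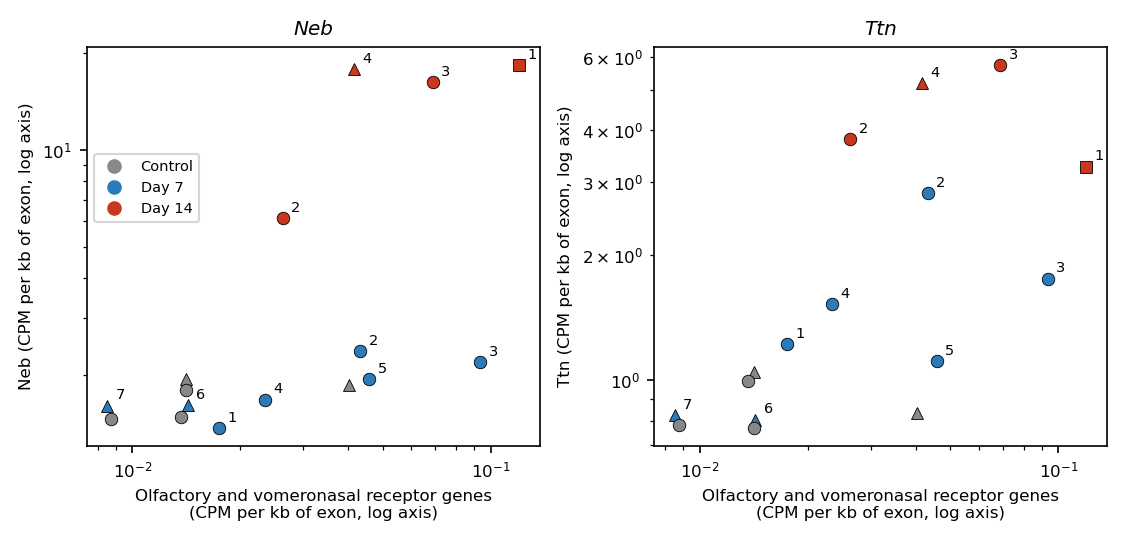
CPM per kilobase of exon for Neb (left) and Ttn (right) against that of the olfactory and vomeronasal receptor genes, 1 point per library, log axes, with library numbers beside day 7 and day 14 points. All 4 day 14 libraries lie above every day 7 and control library for both genes, at receptor levels that overlap with those of day 7.

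Markers of neutrophil precursors were called through day 14 library 4. In the neutrophil list, 4 of 11 tested genes were called higher, the granule enzymes Mpo, Elane, Prtn3 and Ctsg of neutrophil precursors. Mpo had 9.53, 36.8, 18.9 and 1247 CPM in day 14 libraries 1 to 4 against 0.175 to 16.4 CPM at day 7 (log2 change 5.84 ± 1.17, adjusted p = 0.0158), Elane had 0.834, 6.89, 3.94 and 149 CPM against 0 to 1.78 CPM, Prtn3 1.07, 5.58, 3.35 and 179 CPM against 0 to 2.96 CPM and Ctsg 2.03, 7.20, 4.21 and 179 CPM against 0 to 2.36 CPM. Library 4 was far above the other 3 for each of the 4, while S100a8 and S100a9 of mature neutrophils averaged 1.94 and 1.06 CPM at day 14. Without library 4 the log2 change of Mpo was 1.89, that of Elane 2.62, of Prtn3 1.82 and of Ctsg 2.15. The summed neutrophil list was 26.3, 67.6, 41.7 and 1775 CPM in day 14 libraries 1 to 4 and 2.63 to 45.5 CPM at day 7. Library 4 also led Ly6c2, of monocytes and some T cells (11.6, 30.5, 23.5 and 289 CPM, adjusted p = 0.0395), the stem and progenitor antigen Cd93 (4.83, 6.58, 6.55 and 103 CPM, 0.0459), complement C3 (5.96, 9.49, 7.67 and 52.8 CPM, 0.0108), the oxidase subunit Cybb (15.7, 23.6, 38.01 and 78.9 CPM, 0.0158) and the lysosomal protein Lamp2 (38.7, 63.8, 59.8 and 107 CPM, 0.0278). Without it the log2 change was 0.52 for Ly6c2, 0.69 for Cd93, 1.75 for C3 and 1.01 for Cybb. The controls spanned 2.77 to 216 CPM for C3. Mpo, Elane, Ctsg, Prtn3, C3 and Cybb lost their calls without day 14 library 4 (adjusted p = 0.295, 0.225, 0.305, 0.489, 0.0869 and 0.0772). Lamp2 lost its call without day 7 library 4 or 5 or day 14 library 3 or 4 (highest adjusted p = 0.153). Cd93 lost its call without day 7 library 1, 2, 3, 4, 5 or 6 or day 14 library 3 or 4 (highest adjusted p = 0.645). Ly6c2 lost its call without day 7 library 1, 2, 3, 4 or 5 or day 14 library 4 (highest adjusted p = 0.591).

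No B cell marker was called. The 14 tested B cell genes had a median log2 change of 0.16. All 15 B cell genes of the list summed to 40.7 to 65.8 CPM at day 7 and 51.7 to 74.6 CPM at day 14. Cd79a, a chain of the B cell receptor complex, stood at 1.07, 3.41, 3.67 and 2.64 CPM in day 14 libraries 1 to 4 against 3.50 to 7.86 CPM at day 7 (adjusted p = 0.0838), and Ms4a1, the surface antigen CD20, averaged 0.619 CPM at day 14. Of the immature B cell and lymphoma markers, 10 of 12 were tested, 6 had positive log2 changes and the median was 0.53, or 0.07 relative to their own abundance classes. Cd93 was called higher and Lef1 lower. The surrogate light chain genes Vpreb1, Vpreb3 and Igll1 averaged 0.488, 0.06 and 0.169 CPM at day 7 and 0.247, 0.176 and 0.202 CPM at day 14, and of these 3 only Vpreb1 was tested (adjusted p = 0.636). H2-Ob, an MHC class II chaperone subunit, was the 1 call among 10 MHC class II genes (mean ± SD 37.3 ± 8.16 to 21.3 ± 5.31 CPM, log2 change -0.81 ± 0.19, adjusted p = 0.0253). H2-Ob lost its call without day 7 library 1 or 5 or day 14 library 1, 3 or 4 (highest adjusted p = 0.111). The macrophage and monocyte list summed to 27.5 to 93.3 CPM at day 7 and to 62.4, 76.0, 71.2 and 454 CPM in day 14 libraries 1 to 4. The part of myeloid cells in the genes called higher was not tested.

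Leaving out day 14 library 4 removed the most calls. It gave 62 genes higher and 109 lower, with 165 of the 712 genes called in both fits, and leaving out day 14 library 3 gave 164 and 143. Day 7 libraries mattered too: 181 and 209 genes were called without library 1, 178 and 258 without library 4 and 156 and 245 without library 5. Without day 14 library 2 there were 440 higher and 798 lower. Each of the 712 genes that was tested kept the sign of its log2 change in each of these fits. With the 7 Xist-bearing libraries alone, 5 of day 7 and 2 of day 14, 399 genes were higher and 260 lower, and 337 of the 712 were called again.

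**Figure D5:**
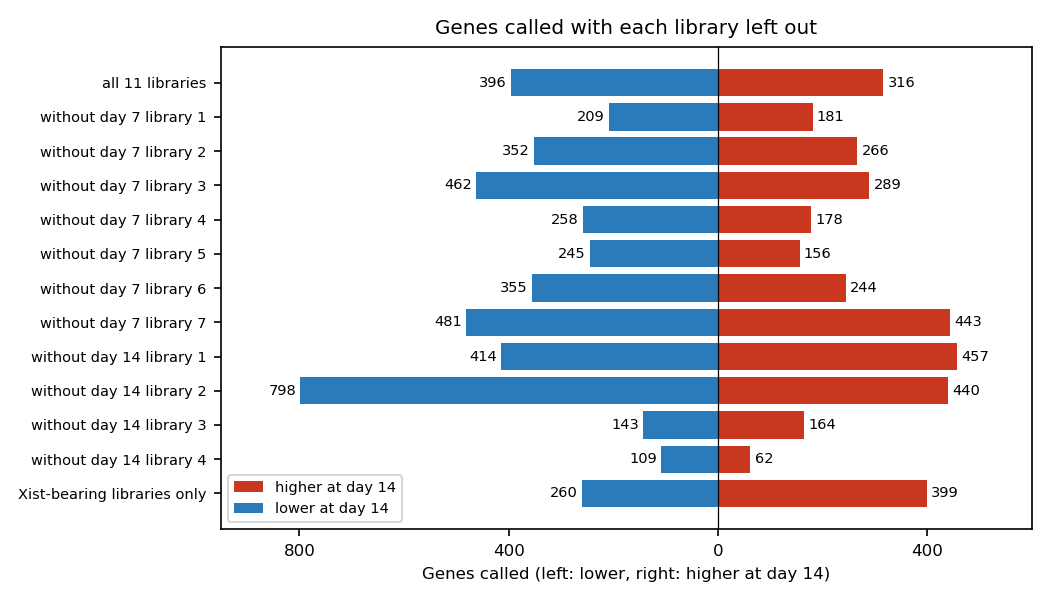
Genes called lower (left) and higher (right) at day 14 with all 11 libraries, with each library left out in turn and with the 7 Xist-bearing libraries alone. With 1 library left out the counts run from 62 to 457 higher and from 109 to 798 lower, both lowest without day 14 library 4.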

How the data were processed

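The authors deposited raw read counts for 23479 genes. Another 5 lines of the table name no gene, and they entered neither library sizes nor tests. Per the submitters' processing notes, the tools were HTSeq 0.6.1, cutadapt 1.8.1 and bcl2fastq 2.20.0.422, on build mm10. Aligner, annotation and strand setting are not given in the sources used here. Overlapping or antisense genes and close paralogs (globins, histones, Serpina3g, Gbp3, Ly6c2, MHC genes) are therefore uncertain.

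Counts of the 11 libraries were tested with edgeR 4.0.16 in R 4.3.3 (limma 3.58.1): TMM, filterByExpr by group with a minimum count of 10, quasi-likelihood fit, and Benjamini-Hochberg adjustment over 17014 genes with a threshold of 0.05. An SE is the absolute log2 change over the square root of F. Single library measures used exact 2-sided permutation tests over 330 splits (smallest possible p 0.00303). Positions are GENCODE's (GRCm38, 93.1% of genes matched). Figures used Python 3.11.15 and Matplotlib 3.10.9. The test was also run on simulated counts with 200 changed genes. No simulated library was set apart from its group, so this run does not bear on the effect of day 14 library 4.

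Genes named are the 8 that rose most and the 8 that fell most among called genes of 10 CPM or more in the higher group without overlap between groups, and as many among called genes of 10 CPM or more in both groups with or without overlap, passing over predicted genes and clone names. To these come up to 6 called members of each list by adjusted p (the most abundant where none was called), a panel of 50 genes and the first 3 markers of each other cell type. The rule gave 213 genes, and 8 more were named after their values were seen. The members and the 60 lists were chosen with earlier results of these data known. Alternatives were other scalings, filters, tools and covariates, a replicate block and leaving out each library. The Xist-bearing libraries, genes of 10 CPM or more, the receptor covariate and list medians relative to abundance class were added after seeing the data.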

Additional observations from a re-analysis of the deposited data

Results flagged for a closer look

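In each group the highest or lowest library was compared with the nearest of the others for 154 genes and 6 library measures, 320 comparisons in all, and 20 were set far apart by Dixon's criterion. Chance sets about 1 in 20 groups apart in this way. Of the 20, 10 were in day 14 library 4.

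Day 14 library 4 was the highest of the day 14 libraries for Mpo (1247 CPM), Elane (149 CPM), Ctsg (179 CPM), Prtn3 (179 CPM), Ly6c2 (289 CPM), Cd93 (103 CPM) and C3 (52.8 CPM), and for the cell division genes Aurkb (21.8 CPM), Stil (33.3 CPM) and Cdk6 (134 CPM). Day 14 library 2 was lowest for Neb (164 CPM) and highest for Jun (446 CPM) and Ier5 (104 CPM).

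At day 7, library 2 was highest for Dst (154 CPM) and Socs3 (89.0 CPM) and lowest for Itgb3 (147 CPM). Library 1 was lowest for Ctsw (26.8 CPM) and highest for S1pr1 (567 CPM). Library 7 was highest for Tfrc (62.6 CPM), and library 3 for the reads on olfactory and vomeronasal receptor genes (498 CPM).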

How the results depend on the processing

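Against 316 genes higher and 396 lower, the counts were 586 and 154 with library totals, 682 and 869 with DESeq2 1.42.0, 76 and 102 with all 16 libraries in the fit, and 754 and 767 with Y-linked transcripts as a covariate. Settings added after seeing the data gave 761 higher with receptor background as a covariate, 260 lower with Xist-bearing libraries, and 631 lower among genes of 10 CPM or more. Leaving out 1 library gave 62 to 457 genes higher and 109 to 798 lower. Library totals moved the share of calls that are higher from 44.4% to 79.2% and the median of all genes by 0.158. Omitting the filter on low counts moved that median by 0.134, and it moved by -0.187 with genes of 10 CPM or more. With the replicate block the counts were 437 and 376. The numbers were not taken to pair mice: correlations of deviations between same-numbered libraries were -0.16, -0.33, 0.34 and -0.04, and 1 of 4 day 14 libraries correlated best with its own number. Each of the 712 called genes that was tested kept its sign in every alternative. Of 132 called genes followed one by one, 44 were called in all 11 fits that leave out 1 library, and 25, all lower, were not called with library totals. The log2 change of Ctla4, not called, turned negative with the Xist-bearing libraries (-0.0499) and with the receptor covariate (-0.0235). The cause of these differences was not tested. Under 1 CPM, 1 of 3733 genes was called, and the part of depth in this was not tested.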
